A study of Homo sapiens with 6 samples.

Results

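The 9 genes described here encode feedback inhibitors of the ERK pathway, namely SPRED1, SPRED2, SPRED3, SPRY1, SPRY2, SPRY4, DUSP4, DUSP5 and DUSP6. They were chosen as named genes among 20037 protein-coding genes, and their sites of TLE3 occupancy were taken from 4 lists of ChIP-seq peaks. Peaks of all libraries that shared at least 1 bp were merged into 72272 regions. A region belonged to a gene when it touched the gene's span, or when that gene was the nearest protein-coding gene within 100 kb. Each region went to 1 gene only. Where it touched several spans, the gene with the nearer end took it, with ties in alphabetical order. In this way 92 regions fell to the members. Assignment by distance does not show that a region acts on the gene. The cells were MDA-MB-453, a human breast cancer line of luminal type that expresses the androgen receptor. In 2 libraries (siFOXA1 1 and siFOXA1 2) the forkhead factor FOXA1 had been silenced transiently, and 2 others (siNS 1 and siNS 2) were the unsilenced arm of the same experiment. All 4 came from the same line, with the same antibody to TLE3 and the same double fixation, and the labels call them biological replicates. The comparison asks how far TLE3 occupancy needs FOXA1. The lists hold positions and scores but no reads, so sequencing depth is unknown and neither FOXA1 nor any transcript was measured.

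ERK is the last kinase of the cascade that runs from growth factor receptors through RAS, RAF and MEK, and it switches on genes that in turn dampen it. Sprouty proteins (SPRY) and their SPRED relatives act near the membrane, between receptor and RAF; SPRED proteins bring the RAS-inactivating protein neurofibromin to the membrane. DUSP4 and DUSP5 remove phosphate from ERK-family kinases in the nucleus, and DUSP6 does so for ERK in the cytoplasm. TLE3 is a Groucho-family corepressor that has no DNA-binding domain of its own and is carried to DNA by transcription factors. The letters printed below are those of promoter windows, and which factors bind them was not measured.

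Every member with an entry in the promoter table had a TLE3 region of both siNS libraries over a promoter. RefSeq promoter windows (GRCh38.p14, 250 bases before to 50 after a start site) matched 7 of the 9 members, with 12 windows in all; DUSP4 and DUSP5 did not match. All 7 had a siNS region over at least 1 window, whichever gene it was assigned to, against 55.5% of the 15842 protein-coding genes in the table. Other windows of SPRED2, SPRED3, SPRY1 and SPRY2 had none. A gene with more windows is more easily counted, and all 15842 genes together had 22173. Only SPRED1 had a region with a siFOXA1 peak at a window, against 3.36% of those genes. The 250 bases before the start site are shown for the 5 members whose start site is the end of the gene and lies under such a region, read 5′ to 3′ on the gene's own strand, with matches to the motifs searched in capitals.
SPRED1, chr15:38252586-38252835, plus strand: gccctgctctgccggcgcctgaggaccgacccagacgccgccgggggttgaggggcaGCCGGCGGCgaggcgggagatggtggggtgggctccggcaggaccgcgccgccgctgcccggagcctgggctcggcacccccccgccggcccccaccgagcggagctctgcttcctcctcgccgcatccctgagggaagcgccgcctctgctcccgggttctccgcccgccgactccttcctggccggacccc
SPRED2, chr2:65432600-65432849, minus strand: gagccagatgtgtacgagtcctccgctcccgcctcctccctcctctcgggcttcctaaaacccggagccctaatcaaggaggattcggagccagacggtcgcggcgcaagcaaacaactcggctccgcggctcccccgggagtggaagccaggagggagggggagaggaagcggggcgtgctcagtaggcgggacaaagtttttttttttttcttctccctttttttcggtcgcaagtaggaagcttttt
SPRED3, chr19:38388447-38388696, plus strand: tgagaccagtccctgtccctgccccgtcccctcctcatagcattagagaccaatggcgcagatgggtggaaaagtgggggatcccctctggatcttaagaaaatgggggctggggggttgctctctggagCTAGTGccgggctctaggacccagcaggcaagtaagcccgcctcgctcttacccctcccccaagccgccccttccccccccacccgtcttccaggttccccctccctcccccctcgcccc
SPRY2, chr13:80341127-80341376, minus strand: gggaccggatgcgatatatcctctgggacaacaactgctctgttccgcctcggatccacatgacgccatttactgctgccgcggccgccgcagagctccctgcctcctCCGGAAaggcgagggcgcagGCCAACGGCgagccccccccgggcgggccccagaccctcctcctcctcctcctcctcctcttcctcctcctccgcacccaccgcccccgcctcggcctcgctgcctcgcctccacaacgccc
DUSP6, chr12:89352502-89352751, minus strand: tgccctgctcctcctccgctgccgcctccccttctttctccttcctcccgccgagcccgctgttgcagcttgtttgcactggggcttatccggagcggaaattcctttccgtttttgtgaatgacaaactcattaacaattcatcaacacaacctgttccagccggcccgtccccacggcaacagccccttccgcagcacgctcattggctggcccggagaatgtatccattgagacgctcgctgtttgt

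The capitals mark few places. The SPRED1 match lies 193 to 185 bases before the start site and spells the AP-2 pattern GCCNNNGGC, which 23.4% of the 22173 promoters of protein-coding genes hold in the same 250 bases. SPRY2 holds the same pattern and, 142 to 137 bases before its start site, the ETS core CCGGAA, found in 17.9%. The SPRED3 match is the HES N-box CACNAG on the other strand, a pattern of 30.9% of promoters. The N-box was in 6 of the 12 member windows, at SPRED2, SPRED3, SPRY1 and SPRY2. The printed SPRED2 and DUSP6 promoters held no match to the 12 patterns. A window inside SPRY1 held the N-box, ETS and AP-2 patterns. The forkhead pattern TGTTTAC, which is the kind of site FOXA1 binds, was in none of the 12 member windows and in 2.45% of all promoters, and its variant TATTTAC was likewise in none and in 1.87%. The other patterns, searched like these on both strands, were the TCF/LEF pattern CTTTGAA (3.21% of promoters) with its variant CTTTGAT (1.78%), TGTGGT (RUNX, 9.34%), CACGTG (E-box, 7.38%), TGANTCA (AP-1, 5.34%), TGACGTCA (CRE, 2.02%) and, for GATA factors, AGATAA (7.09%). Of these, CTTTGAA occurred in a second SPRY2 window, TGTGGT in a window inside SPRED2 and TGANTCA in a window inside SPRED3. A match is only a string of letters, and these windows leave out the distal regions described further on. G and C made up 78.4% of the SPRED1 promoter, at or above 94% of all promoters, and 57.2% of the DUSP6 promoter, below the median of 62%.

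Fewer member regions carried a TLE3 peak in the silenced libraries. Peaks lay in 43 member regions in siNS 1 and in 66 in siNS 2, against 14 in siFOXA1 1 and 28 in siFOXA1 2. The groups did not overlap, with 54.5 ± 16.3 regions in siNS and 21 ± 9.9 in siFOXA1 (mean ± SD, n = 2 each). With 6 ways to relabel the libraries, the exact two-sided permutation test gave p = 0.33, the smallest that 2 against 2 libraries allow. The siFOXA1 lists are shorter throughout, with 12249 and 13754 peaks against 45105 and 46586. As a share of all regions in its library, the members held 0.098% in siNS 1, 0.15% in siNS 2, 0.116% in siFOXA1 1 and 0.205% in siFOXA1 2, and here the groups overlapped (exact permutation p = 0.667). With the lists cut to equal length the difference in counts turned round, to -1 region (siNS minus siFOXA1; exact permutation p = 1). That alternative takes the 12249 best peaks of each list.

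Within 1 kb of a gene end the silenced libraries had at most 1 member region with a peak each. Of all their regions, too, a smaller share lay there than in siNS. There the members had 10 regions with a peak in siNS 1, 11 in siNS 2, none in siFOXA1 1 and 1 in siFOXA1 2. Elsewhere they had 33 and 55 in siNS against 14 and 27 in siFOXA1. Over all regions, 31.6% of those in siNS 1 and 27.2% in siNS 2 lay near a gene end, against 5.28% in siFOXA1 1 and 4.84% in siFOXA1 2. Neither pair of member groups overlapped, and each gave p = 0.33 by the exact permutation test. SPRED2 had the most regions with a peak in 3 of the 4 libraries, with 12 and 24 in siNS and 3 and 10 in siFOXA1. DUSP5 followed with 11 and 14 against 3 and 3, and SPRY4 with 6 and 11 against 2 and 1. DUSP4 had 7 and 4 against 0 and 2. SPRED1 went the other way, with 1 and 3 regions in siNS and 4 in each siFOXA1 library. For each of these 5 genes the groups did not overlap (exact permutation p = 0.33). Of the 16102 protein-coding genes with a region, 66% had more regions in both siNS libraries than in either siFOXA1 library, as SPRED2, DUSP5, SPRY4 and DUSP4 did, and 1.99% had more in both siFOXA1 libraries, as SPRED1 did. They overlapped for SPRY1 (2 and 3 against 1 and 4), SPRY2 (3 and 1 against 0 and 1) and DUSP6 (1 and 6 against 1 and 3).

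**Figure D1:**
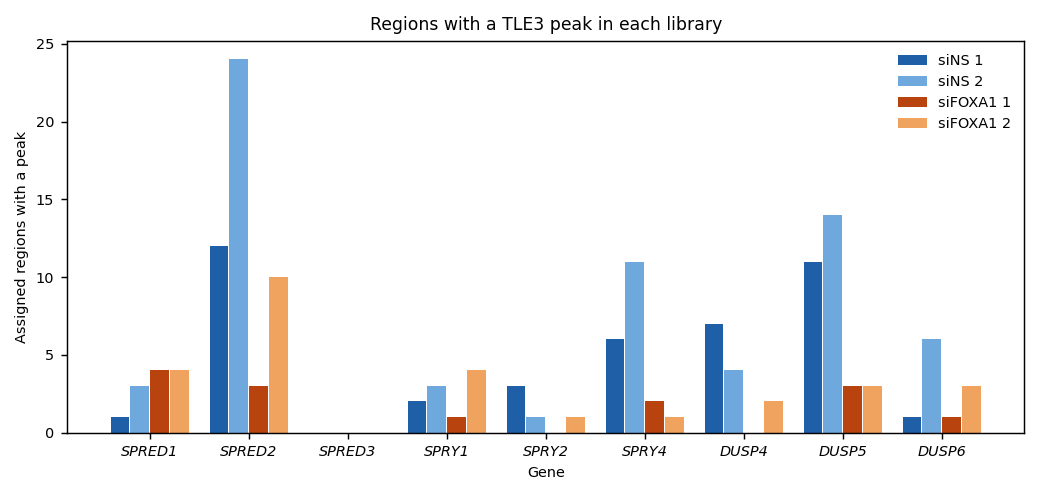
Number of assigned regions with a TLE3 peak (y axis, count) for each of the 9 genes (x axis) and each library (1 bar each, no error bar because each bar is 1 library). SPRED2 reaches 24 regions in siNS 2, SPRED1 is the gene with more regions in both siFOXA1 libraries, and SPRED3 has none.

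Where siNS 1 and siNS 2 both had a peak, the region is called a siNS consensus region, and the members had 33 of them, and in all 33 the siNS 1 and siNS 2 peaks overlapped each other directly. Of the 9 members 8 had at least 1, against 61.6% of all protein-coding genes. They amounted to 2.28 per 100 kb of the genome assigned to the members, against 1.14 per 100 kb for all protein-coding genes. The density ran from 6.51 per 100 kb at DUSP5 and 4.52 at SPRED2 to 0.395 at SPRED1 and 0 at SPRED3. The assigned stretch also differed, from 12.8 kb for SPRED3 to 252.9 kb for SPRED1. Within 1 kb of a gene end lay 9 of the 33 (27.3%, exact 95% binomial interval 13.3 to 45.5%), against 42.7% of all siNS consensus regions. A further 51 of the 92 member regions had a peak in 1 library only, 27 of them in siNS 2 and 9 in siNS 1. Without siNS 1 the peaks of siNS 2 alone gave 69 regions in place of 33.

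Of the 33 siNS consensus regions 10 also held a siFOXA1 peak and are called kept. The others are called lost, which means only that neither siFOXA1 list has a peak in them. That is 30.3% (15.6 to 48.7%), and the interval includes the 17% of all 24967 siNS consensus regions. All 10 were kept in siFOXA1 2 and 6 of them in siFOXA1 1 as well, which makes these 6 common to all libraries. When each list was limited to its better-scoring 50%, 3 of 25 were kept (12%), against 14.2% of all siNS consensus regions. With the lists cut to equal length 5 of 12 were kept (41.7%), against 32.3% of all. Near a gene end 1 of 9 was kept, against 6.28% of all siNS consensus regions there, and elsewhere 9 of 24 (37.5%, 18.8 to 59.4%), against 24.9%. The kept regions elsewhere lay 2.4 to 80.1 kb from the nearer end of their gene (median 54.3 kb) and the 15 others 1.3 to 88.9 kb (median 25.4 kb). Such intervals cover counting error over regions, which are not replicates.

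Score rank did not sort kept from lost regions cleanly. Ranks run from 1 for the best score of a list, and the mean over both siNS lists, as a percent of list length, is used as strength. Scores printed below are as deposited, and it is not known whether they are on the same scale in different lists. Member regions that were kept had a median strength of 17.7% and the lost ones of 32.4%, against 14% and 36.7% over all siNS consensus regions. Among the strongest 10% of siNS consensus regions were 8 member regions. Of the 2 near a gene end 1 was kept, against 40.8% of all such regions, and of the 6 elsewhere 3 were kept, against 68.5%. After silencing, kept regions were spread over the lists, from 28.3 to 97.5% of list length in siFOXA1 1 and from 15 to 97% in siFOXA1 2. In siFOXA1 1, 3 of 6 were in the upper 50% of the list by score, in siFOXA1 2 it was 3 of 10, and the same 3 regions account for both, 1 at SPRY1 and 2 at DUSP5.

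**Figure D2:**
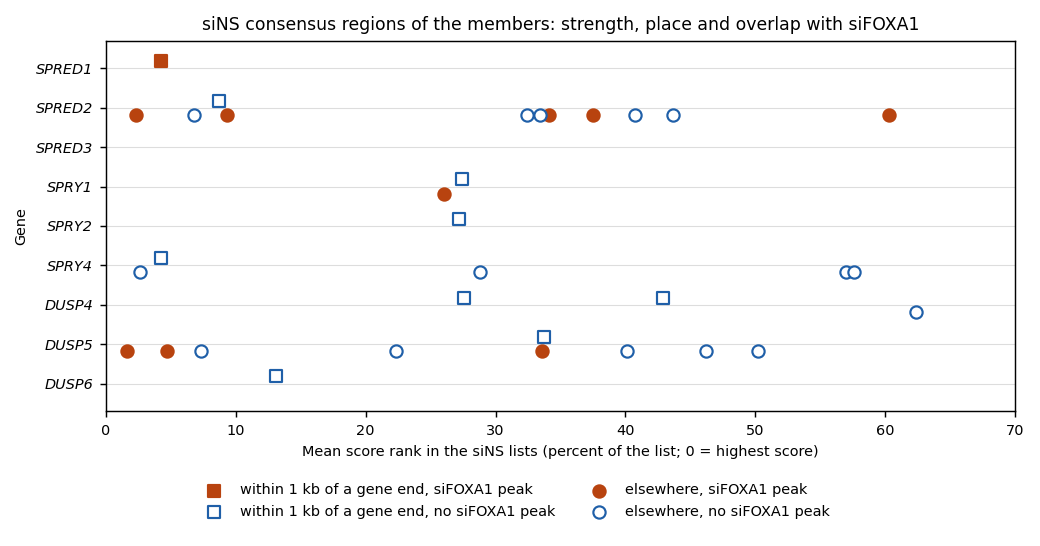
Each siNS consensus region of the members (1 marker each) by gene (y axis) and by its mean score rank in the siNS lists (x axis, percent of the list, 0 = best score). Squares, drawn above the line, lie within 1 kb of a gene end and circles elsewhere; filled markers hold a siFOXA1 peak. SPRED1 has the only filled square, and SPRY4 has open markers at 2.64 and 4.23%.

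The SPRED genes, whose products hold back RAS through neurofibromin, accounted for 12 siNS consensus regions and 6 of the 10 kept ones. SPRED2 (chromosome 2, 65307175 to 65432599) had 11, of which 5 were kept. Its strongest region, 3.0 kb beyond the gene end that holds the start site (65435608 to 65437038), scored 177 in siNS 1 and 105 in siNS 2 (ranks 538 and 1622) and 9.36 and 5.18 in siFOXA1 1 and siFOXA1 2 (ranks 6217 and 12278). It thus had a peak in all libraries, among the best few percent of each siNS list and in the lower 50% of each siFOXA1 list. The broad region over the SPRED2 start site itself (65430311 to 65433440, 3130 bp) scored 67.3 and 53.1 in siNS and had no siFOXA1 peak. A common region inside the gene (65377514 to 65378288) scored 42.6 and 93.5 in siNS and 3.88 and 9.26 in siFOXA1.

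Other SPRED2 regions differed in whether they held a siFOXA1 peak. A strong region inside the gene (65315721 to 65316919), with scores of 56.4 and 101 in siNS, had no siFOXA1 peak. A weaker region nearer the gene end (65309580 to 65310064), with 13.8 and 23.1, was kept in siFOXA1 2 with a score of 4.03, at 97% of that list. The regions at 65388020 to 65388639 and 65505314 to 65505722 were likewise kept in siFOXA1 2 alone, with scores of 9.76 and 4.86. Outside the siNS consensus, a region 19.6 kb from the gene (65452165 to 65452952) had peaks in both siFOXA1 libraries, with scores of 6.45 and 5.25, and in siNS 2 with 16. In siNS 2 alone SPRED2 had 10 regions, and in siNS 1 alone 1.

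SPRED1 (chromosome 15, 38252836 to 38357249), which is mutated in Legius syndrome, had 1 siNS consensus region and it covered the start site (38251050 to 38253469). It scored 115 in siNS 1 and 78.6 in siNS 2 (ranks 1292 and 2596), 6.13 in siFOXA1 2 (rank 11356), and had no peak in siFOXA1 1. No other member kept a region within 1 kb of a gene end. SPRED1 also held the only member region that both siFOXA1 libraries shared and both siNS libraries lacked, 89.0 kb before the gene (38163422 to 38163815), with scores of 19.6 and 6.39. The other 7 regions of SPRED1 were each in 1 library, 5 of them in a siFOXA1 library.

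SPRED3 (chromosome 19, 38388697 to 38399587) had no region assigned, and this follows from its neighbours. A siNS consensus region (38388190 to 38389450) covered its start site, scoring 22.1 and 13.2 in siNS 1 and siNS 2, with no siFOXA1 peak. The same region covered an end of GGN, and the tie went to GGN by alphabetical order. Counting every region that touches a member for that member, a choice made after seeing the data, gave 34 siNS consensus regions and 9 of 9 members with at least 1. Within 10 kb of SPRED3 lay 3 siNS consensus regions of other genes, none of them kept.

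The Sprouty genes had 8 siNS consensus regions, of which 1 was kept. Around SPRY4 (chromosome 5, 142310430 to 142325021), a negative regulator of receptor tyrosine kinase signalling, all 5 lacked a siFOXA1 peak although 2 ranked near the top of the siNS lists. The region 31.5 kb from the gene (142356478 to 142357648) scored 140 and 108 in siNS 1 and siNS 2 (ranks 887 and 1539). The region over the gene end (142323812 to 142326796, 2985 bp) scored 130 and 73.9 (ranks 1029 and 2877). The remaining 3 scored 5.04 to 24.1. The siFOXA1 peaks around SPRY4 lay elsewhere. In siFOXA1 1 there were 2, both in regions that siNS 2 also had, the farther of them 96.2 kb from the gene with scores of 124 in siNS 2 and 4.68 in siFOXA1 1. In siFOXA1 2 there was 1.

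SPRY1 (chromosome 4, 123396795 to 123403760) had a region inside the gene, 0.4 kb from its end (123397195 to 123399788), that scored 41.2 and 15.7 in siNS and had no siFOXA1 peak. It covered the second of the start sites that the promoter table gives for the gene. The kept Sprouty region lay 74.9 kb past SPRY1 (123478644 to 123479405). It scored 10.6 in siNS 1 and 102 in siNS 2 (ranks 21788 and 1708), and 11.8 and 25.7 in siFOXA1 1 and siFOXA1 2 (ranks 4785 and 2063). It was thus among the best 3.67% of the siNS 2 list but at 48.3% of the siNS 1 list, and at 39.1% and 15% of the siFOXA1 lists. SPRY2 (chromosome 13, 80335976 to 80341126) had 1 siNS consensus region, over its start site (80340944 to 80341861), with scores of 45.6 and 14.8 and no siFOXA1 peak. Its 1 siFOXA1 region, 17.9 kb away, was in siFOXA1 2 alone with a score of 20.9.

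The phosphatase genes had 13 siNS consensus regions, of which 3 were kept, all 3 at DUSP5. DUSP5 (chromosome 10, 110497907 to 110511533) had a string of regions 37.1 to 92.7 kb before the lower-coordinate end of the gene. Among these was the strongest siNS consensus region of all members (110430596 to 110432387), 65.5 kb away, with scores of 185 and 134 in siNS (ranks 484 and 1031) and 12.5 and 10.8 in siFOXA1 (ranks 4376 and 6375). A second, 40.3 kb away (110456055 to 110457590), scored 80.3 and 100 in siNS and 15.1 and 17.7 in siFOXA1 (ranks 3467 and 3517). Another, 80.1 kb away (110416891 to 110417834), scored 20.8 and 17 in siNS and 3.66 and 5.5 in siFOXA1. These 3 had a peak in all 4 libraries, while their neighbour 88.9 kb away (110407996 to 110408959), with 70.6 and 63.9 in siNS, had none after silencing. At the gene itself the region over the lower-coordinate end (110497359 to 110500005, 2647 bp) scored 13.1 and 24.7 in siNS (ranks 18872 and 11891). It had no siFOXA1 peak. The regions 1.3 kb before the gene (ranks 15158 and 27434) and 3.3 kb inside it (ranks 26527 and 19360) had none either. Each of these regions ranked beyond 12249, the length of the shortest list, in at least 1 siNS list. Whether the shorter siFOXA1 lists account for the missing peaks was not tested. DUSP5 had 3 siFOXA1 regions in each library, and they were the same 3.

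DUSP4 (chromosome 8, 29333064 to 29350684) had its 3 siNS consensus regions at or near the higher-coordinate end of the gene. The region over that end (29350399 to 29351588) was the strongest, scoring 38.2 and 16.2 in siNS 1 and siNS 2. The others scored 18.9 and 10.9, and 6.63 and 10.1. None held a siFOXA1 peak, and the 2 siFOXA1 regions of DUSP4, both in siFOXA1 2 alone among the silenced libraries, lay 5.2 and 16.0 kb from the other end.

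DUSP6 (chromosome 12, 89347235 to 89352501) had 1 siNS consensus region, over its start site (89352351 to 89353141), with scores of 41.2 and 48.9 and no siFOXA1 peak. A stronger region 763 bp from that end of the gene (89353264 to 89354754) had scores of 111 and 53.6 and likewise no siFOXA1 peak. It was assigned to POC1B-DUSP6, an annotated readthrough gene whose span holds it. DUSP6 also had a region 90.8 kb from the gene (89255960 to 89256424) with peaks in both siFOXA1 libraries, at scores of 12.5 and 5.73, and in siNS 2 at 9.28.

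**Figure D3:**
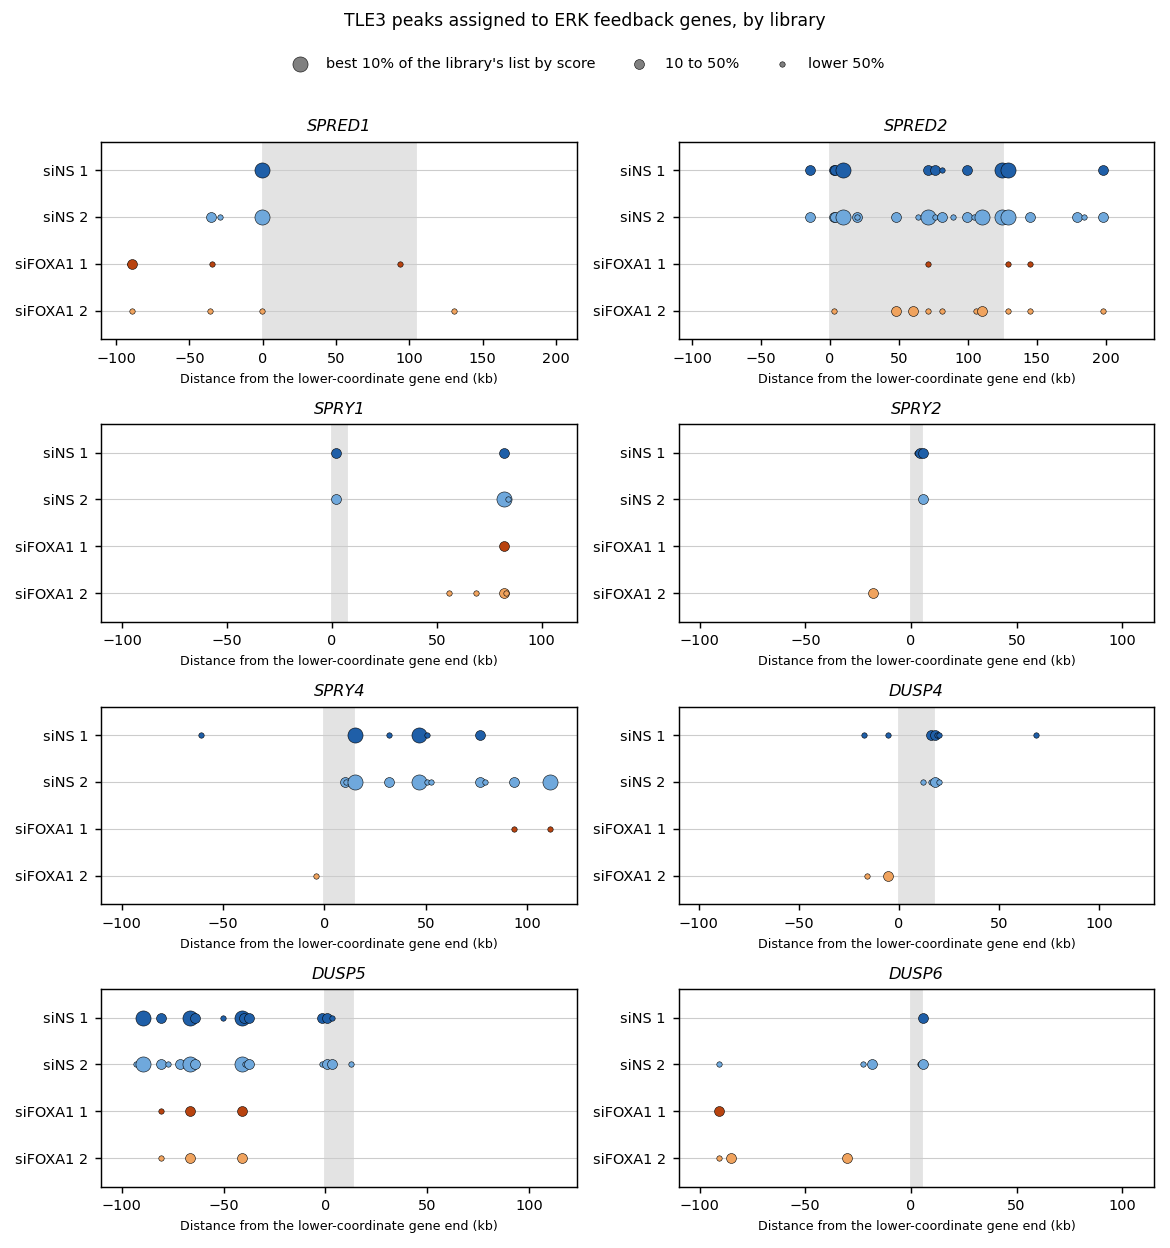
TLE3 peaks around the 8 members with an assigned region, 1 row per library (y axis), placed by distance from the lower-coordinate end of the gene (x axis, kb); grey marks the gene, and larger markers rank higher in the library's own list. At DUSP5 the 3 siFOXA1 positions, 40.3 to 80.1 kb before the gene, line up in all 4 rows, while no siFOXA1 marker lies in or at the grey span.

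Member siNS consensus regions over start sites and gene ends were wider than the others. The 9 that lay no more than 1 kb from a gene end had a median width of 2420 bp (791 to 3130 bp), and the 24 others 729 bp (329 to 1792 bp). Over all siNS consensus regions the medians were 1060 and 708 bp. A merged region is as wide as the peaks it joins, so these widths also depend on how peaks of different libraries overlap.

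Regions with a peak in both siFOXA1 libraries numbered 9 at the members, and 8 of them held a siNS peak (88.9%, 51.8 to 99.7%), against 60% of all 8205 such regions. They fell to 5 members, namely SPRED1, SPRED2, SPRY1, DUSP5 and DUSP6, against 19.4% of protein-coding genes with at least 1. Kept regions fell to 4 members (SPRED1, SPRED2, SPRY1 and DUSP5), against 13.8% of genes. Only a gene with a siNS consensus region can have a kept one. Such genes were 8 of the 9 members and 12340 of all 20037, of which 2767 had a kept region. The number of siFOXA1 consensus regions rests on the agreement of both libraries, and peaks of siFOXA1 1 alone gave 14 regions and those of siFOXA1 2 alone 28.

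Nearly all other genes of the pathway had a siNS consensus region too. Of 62 pathway genes outside the members, 60 had a siNS consensus region, with a median of 1 per gene and 126 in all, of which 21 were kept (16.7%). Of all 20037 protein-coding genes 61.6% had one, also with a median of 1 per gene. Of the siNS consensus regions assigned to those genes 16.1% were kept, close to the share of the pathway genes. The members had a median of 2, as did the RAS GTPase activators, and the genes listed as transcription targets 1.5. NRAS, a RAS protein, and ETV4, an ERK-responsive ETS factor, were the genes with none; they were named after their values were seen. All 8 adaptors and exchange factors had a region, with 6 at GRB2 (3 kept) and 2 each at GAB1 and SOS1 (none kept). RAS proteins had one in 5 of 6 cases, with 2 at RRAS (1 kept) and 1 at HRAS (kept). All 8 GTPase activators that turn RAS off had one, with 13 at DAB2IP (4 kept) and 2 each at NF1, which encodes neurofibromin (none kept), and RASA3 (1 kept).

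All 12 kinase and scaffold genes had a region, with 4 at the scaffold KSR2 (2 kept), 4 at MAP2K2, a MEK kinase (none kept), and 2 at the scaffold KSR1 (1 kept). The 14 genes listed as other feedback inhibitors all had one as well, 21 in total, and none of the 21 was kept. Of the siNS consensus regions assigned to all protein-coding genes, 16.1% were kept. Within 1 kb of a gene end it was 6.28% of all siNS consensus regions there, and how near the 21 lay to gene ends was not tested. In this group the most were at the phosphatase genes DUSP8 with 4, DUSP1 with 3 and DUSP10 with 2. The group was listed by gene name, and whether each gene acts on ERK itself was not tested. DUSP10 also had 3 siFOXA1 consensus regions that were not in the siNS consensus. Of the 14 genes listed as transcription targets 13 had a siNS consensus region, with 39 regions and 8 kept. The list also holds regulators on which ERK acts, such as CIC, a repressor that ERK inactivates. The most were at FOS and MYC with 7 each (3 and 2 kept) and at CIC with 6 (none kept). Neither the members nor these lists were matched to other genes on expression.

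**Figure D4:**
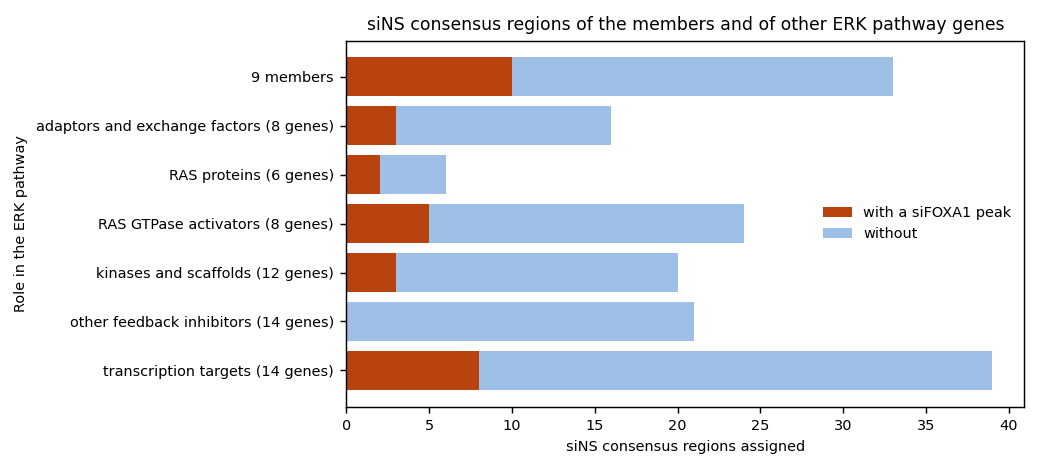
siNS consensus regions (x axis, count) assigned to the 9 members and to 6 groups of other ERK pathway genes by role (y axis), split into those with and without a siFOXA1 peak. The members have 33 regions with 10 kept, and the other feedback inhibitors 21 with none kept. Over all protein-coding genes 16.1% of the assigned siNS consensus regions were kept.

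The genes most like SPRED2 in their number of regions per library were KAZN, PTPRJ and BCAR3, at Euclidean distances of 4.58, 5.29 and 5.48 over the 4 libraries. KAZN had 12 and 26 regions in siNS and 4 and 6 in siFOXA1, PTPRJ, a receptor-type tyrosine phosphatase gene, 11 and 23 against 8 and 9, and BCAR3 9 and 23 against 5 and 6. The 3 genes were chosen by these same counts, so the excess of siNS 2 over siNS 1 that each shared with SPRED2 follows from the choice. Their kept shares were lower or higher, at 1 of 7 for KAZN, 5 of 9 for PTPRJ and 2 of 7 for BCAR3, beside 5 of 11 for SPRED2.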

How the data were processed

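TLE3 ChIP-seq libraries of MDA-MB-453 were used, 2 of siNS and 2 of siFOXA1; 2 input libraries were not used here, and their labels name the line MDA-MB-454. Groups and replicate numbers follow the sample titles; the list of siFOXA1 2 carries the number 3 in its own name. The authors deposited 1 peak list per library with 5 columns, the last a score whose definition is not stated. Ranks and score thresholds were taken inside each list, and scores of single regions are printed as deposited. Scores of different lists are not on a known common scale, so a lower printed score does not by itself show lower occupancy. Per the submitters' processing notes, Trim Galore, BWA 0.7.5a, SAMtools and MACS2 were used on hg38; settings and the part of the inputs: not given in the sources used here. No list gives reads or depth. The 3 to 9 mitochondrial peaks of each list were left out, and no pair of libraries shared more than 1 identical peak.

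Positions are 1-based. Gene spans and promoter letters came from RefSeq tables of GRCh38.p14, the same chromosomes as hg38. A region overlapping several genes went to the gene with the nearer end, with ties in alphabetical order. Assigned genome was measured on a 100 bp grid. The members, gene lists, motifs and rules were chosen with earlier results of these data known. The text names all members, their strongest, kept and siFOXA1 consensus regions, the 3 pathway genes per role with most siNS consensus regions, and the 3 genes nearest SPRED2. Some items that this rule selects are left out of the text. No genome sequence was used, so peaks were not searched for motifs. Alternatives were another score threshold, overlap, peak width, list length, assignment and distance, and leaving out each library. Group means over libraries were compared by exact permutation. Merging and assignment were tested on 300 simulated regions, all recovered, and merging gave the same 72272 regions as bedtools 2.31.1. Python 3.11.15, numpy 2.4.6, scipy 1.17.1 and matplotlib 3.10.9 were used.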

Additional observations from a re-analysis of the deposited data

How the results depend on the processing

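Of 89 values recomputed under other settings 72 stayed within 1.5 times a count, within the interval of a share or on the same side of the test, 16 moved further and 1 changed sign. Some of the 72 had little or no room to change. Counts of siNS consensus regions hardly depend on the siFOXA1 lists, nor siFOXA1 consensus counts on the siNS lists, and the replicate block leaves the difference of means as it is. With lists of equal length the members had 12 siNS consensus regions at 5 members, 7 of them siNS-only and 3 common, and the difference in regions per library (siNS minus siFOXA1) was -1. Of these 12 regions 5 were kept (41.7%). Over all siNS consensus regions the kept share was 32.3% with lists of equal length, against 17% with the full lists. Within 10 kb of the genes there were 20 siNS consensus, 15 siNS-only, 2 common and 2 siFOXA1 consensus regions. When each list was limited to its better-scoring 50%, 12% of siNS consensus regions were kept, against 14.2% of all, and 3 common and 3 siFOXA1 consensus regions remained in number. Leaving out 1 library at a time gave 33 to 69 siNS consensus, 23 to 53 siNS-only, 6 to 10 common and 9 to 28 siFOXA1 consensus regions, fewer libraries having to share a peak; the highest values came without siNS 1 for the first 2 and without siFOXA1 1 for the others. The kept share then ranged from 18.2 to 30.3%, beside 9.55 to 17.3% of all siNS consensus regions; without siNS 2 it was 24.4% (11 of 45) beside 9.55%. The labels give both groups replicates 1 and 2 but nothing that pairs them; with the replicate block the difference was again 33.5 regions (exact sign-flip permutation p = 0.5, the smallest that 2 pairs allow). The cause of these shifts was not tested beyond the fewer peaks or libraries that each setting uses.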
